A study of Mus musculus with 6 samples.

Results

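Integrins are the paired alpha and beta receptors by which cells hold on to the extracellular matrix, and this account covers 9 of their subunit genes in mouse lens epithelial cells: Itgb4, Itga6, Itgb1, Itga3, Itga5, Itgav, Itgb5, Itgb3 and Itga2. They were found by gene symbol among the 45281 probes of the array, where 18 probes carried the symbol of 1 of the 9, and the array named 19057 genes in all. Gene expression was measured with 1-colour Illumina bead arrays in 21EM15, an established epithelial cell line from mouse lens. Controls were 3 samples that carried a lentiviral construct containing GFP, and the knockdown samples were 3 that carried a lentiviral construct containing an shRNA (a short hairpin RNA that lowers its target transcript) against Tdrd7, a Tudor domain gene whose protein is found in cytoplasmic RNA granules. All 6 samples thus came from 1 cell line and a lentiviral construct; the labels name no hairpin for the controls, so that effects of the constructs and of lower Tdrd7 cannot be told apart. Control arrays carry the numbers 1 to 3 and knockdown arrays 4 to 6, after the scanner table.

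In the lens, the epithelium sits on the lens capsule, a thick basement membrane rich in laminin and type IV collagen, and integrins tie the cells to it. The alpha6beta4 receptor binds laminin and anchors keratin filaments in hemidesmosomes of stratified epithelia. The alpha6beta1 and alpha3beta1 receptors also bind laminin, alpha5beta1 binds fibronectin, alpha2beta1 binds collagen, and the alphav receptors bind vitronectin, fibronectin and latent TGF-beta. Each subunit reaches the cell surface only with its partner, and beta4 is known to pair with alpha6 alone.

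Of the 12 lens marker genes found on the array, 7 were detected on all 6 arrays, namely Pax6, Six3, Prox1, Sox2, Cryab, Cdh2 and Gja1, and Foxe3 and Mip were not detected on any. Of 7 keratinocyte and stratified epithelium markers, Krt5, Krt14, Krt17, Trp63, Epcam and Sfn were not detected on any array, while 6 of 7 fibroblast and mesenchyme markers were detected on all. Between 37.2% and 38.8% of probes were detected per array, and the median probe signal lay between 72.6 and 82.6 intensity units. Array 4 stood apart from the rest, its correlation with the remaining 5 over 9200 genes averaging 0.957, against 0.971 to 0.976 for those 5. Tdrd7 itself was lower on each knockdown array, at 7.67, 7.46 and 8.42 log2 units against 9.38, 9.80 and 9.93 in control (limma log2 fold change -1.85 ± 0.28, SE, adjusted p = 0.76; two-sided exact permutation p = 0.1, the smallest that 3 arrays against 3 allow). Nothing in the labels says that replicates came from separate cultures, and every p-value here rests on a spread between samples that may be technical.

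To enter the comparison a gene needed a probe with detection p under 0.05 on every array of the control or of the knockdown group, and 7 of the 9 subunits had one, through 10 of their 18 probes. Itga2, the collagen-binding alpha2 subunit, was not detected on any array. Itgb3, the beta subunit of the vitronectin receptor alphavbeta3, was detected on 2 control arrays and on no knockdown array, with normalized values of 5.30, 4.97 and 5.53 in control and 5.03, 5.23 and 4.99 in knockdown. These lie around the lowest detected signal per array, 5.23 to 5.34 log2 units, so no fold is given for either gene.

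The beta4 subunit gene Itgb4 was lower on the knockdown arrays than on the control arrays. Its brighter probe, ILMN_3144575, gave scanner signals of 418.3, 341.9 and 383.7 on control arrays 1 to 3 and of 290.5, 239.9 and 195.7 on knockdown arrays 4 to 6. After normalization these were 8.20, 8.42 and 8.54 log2 units in control and 7.64, 7.38 and 7.56 in knockdown. Every knockdown array lay below every control array, and the gap between the groups, from 7.64 to 8.20, was wider than the spread within either. The log2 fold change was -0.86 ± 0.18 (SE, n = 3 per group, 95% interval -1.27 to -0.45, limma adjusted p = 0.98). This is a level 55% of control, with a ratio between 0.413 and 0.731. Itgb4 gave its name to this set because of its difference in this same contrast, so that the set was selected on these values, which describe it and test nothing.

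The other Itgb4 probe, ILMN_2634689, is annotated to another transcript of the gene and behaved alike. It was at 7.28, 7.21 and 7.28 log2 units in control and at 6.76, 6.28 and 6.28 in knockdown, a difference of -0.82 with no overlap between the groups. Across the 6 arrays the probes correlated at r = 0.935, though both read the same RNA samples. Among 9200 genes tested, 52 (0.565%) had a log2 fold change as low as that of Itgb4 or lower, and that number was 134 without control array 2, 201 without knockdown array 5 and 103 without knockdown array 6. The limma threshold of 0.05 after adjustment was passed by 0 genes (0% of 9200), and 303 had an unadjusted p under 0.05. The knockdown arrays lay wholly above or below control for 7.83% of all genes (3.5% below and 4.33% above), and for 1 of the 7 subunits tested, which is Itgb4. Of the 7, 3 had fitted values below and 4 above control, beside 47.7% and 52.3% of all genes.

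**Figure D1:**
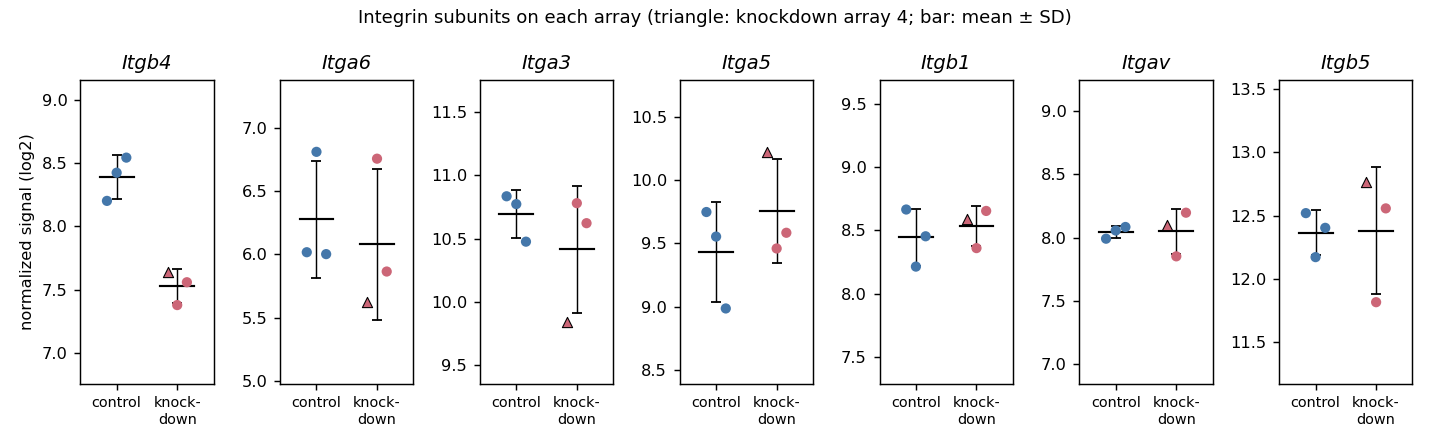
Normalized log2 signal of the 7 integrin subunits that passed the detection filter, 1 panel per gene, with control arrays in blue and knockdown arrays in red (triangle, array 4). Horizontal lines are group means and bars are SD over 3 arrays; each panel spans the same number of log2 units. For Itgb4 the control arrays lie at 8.20 or above and the knockdown arrays at 7.64 or below, while the groups overlap in the other 6 panels.

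Itga6, which encodes the sole known partner of beta4 and also pairs with beta1, did not separate the groups. Its detected probe was at 6.02, 6.81 and 6.002 log2 units in control and at 5.62, 6.76 and 5.86 in knockdown. Arrays 2 and 5 were high and the other 4 low, so that each group held 1 high array. Knockdown minus control was -0.19 log2 units ± 0.34 (SE; 95% interval -0.99 to 0.60), an interval that holds both no difference and the value of Itgb4. It turned to 0.07 without control array 2 and to 0.03 without knockdown array 4. The gene's other 2 probes were not detected on any array.

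Itga3, the alpha3 subunit of a laminin receptor with beta1, was at 10.83, 10.77 and 10.48 log2 units in control and at 9.84, 10.78 and 10.62 in knockdown. Array 4 alone was low and the other knockdown arrays lay within the control range. The log2 fold change of -0.28 ± 0.27 (SE; 95% interval -0.90 to 0.34) became 0.01 without array 4.

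Itgb1, the common partner of alpha3, alpha5 and alpha6, was at 8.66, 8.21 and 8.45 log2 units in control and at 8.59, 8.36 and 8.65 in knockdown by its brighter probe. Its log2 fold change was 0.09 ± 0.19 (SE; 95% interval -0.35 to 0.53). Its other detected probe gave -0.32, from 8.05, 8.64 and 8.36 in control and 8.10, 7.65 and 8.34 in knockdown. The probes of this gene disagreed in sign and correlated at r = -0.224 over the 6 arrays, and the groups overlapped for both, so no direction can be given for Itgb1.

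Itga5, the alpha subunit of the fibronectin receptor alpha5beta1, was at 9.75, 9.55 and 8.99 log2 units in control and at 10.22, 9.46 and 9.58 in knockdown. The highest value was that of array 4 and the lowest that of control array 3. The log2 fold change was 0.33 ± 0.28 (SE; 95% interval -0.32 to 0.97), and it was 0.09 without array 4 and 0.10 without control array 3. A further Itga5 probe gave 0.26, and the probes correlated at r = 0.985 over the 6 arrays.

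Itgav, the alpha subunit shared by the vitronectin receptors, had the narrowest range over the arrays of the 7 subunits. Its detected probe was at 7.99, 8.06 and 8.08 log2 units in control and at 8.10, 7.85 and 8.20 in knockdown. Knockdown differed from control by 0.01 log2 units ± 0.17 (SE; 95% interval -0.39 to 0.40), which leaves room for a ratio from 0.763 to 1.32. Of its 4 other probes, 3 were not detected on any array and the fourth was detected on 2 control arrays and on no knockdown array.

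Itgb5, the beta subunit that pairs with alphav, was at 12.52, 12.17 and 12.40 log2 units in control and at 12.77, 11.82 and 12.56 in knockdown. The knockdown arrays held both the highest and the lowest value, on arrays 4 and 5. Its log2 fold change was 0.02 ± 0.27 (SE; 95% interval -0.60 to 0.63), and it was -0.18 without array 4 and 0.30 without array 5.

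**Figure D2:**
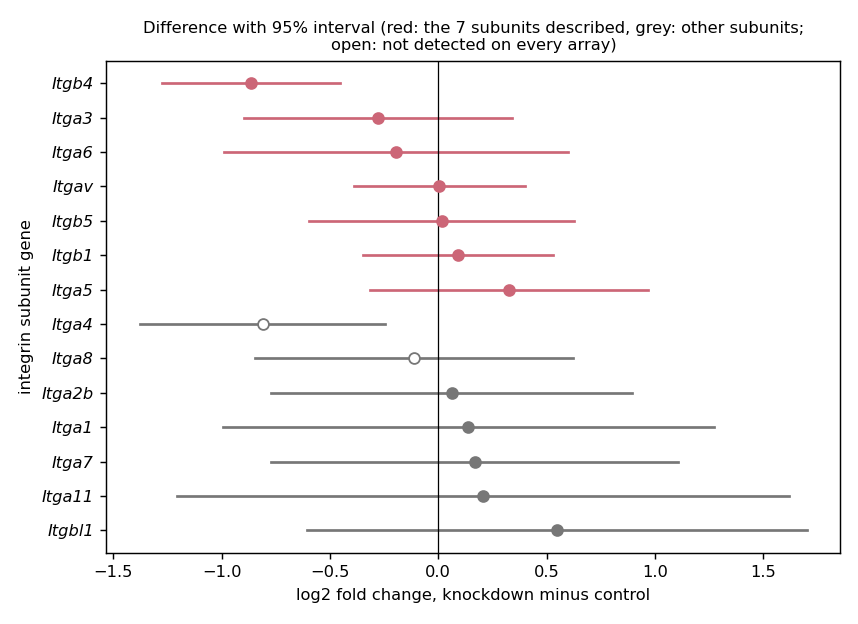
Log2 fold change (knockdown minus control, points) with its 95% interval (lines) for the 14 integrin genes that passed the detection filter. The 7 described subunits are in red and 7 further genes in grey, among them Itgbl1, a related secreted protein. Open points are genes not detected on every array, where a value can rest on background (Itga4 was detected on 1 of 3 knockdown arrays). The interval of Itgb4 (-1.27 to -0.45) lies below 0, but the gene was selected on this contrast, so that tests nothing. The intervals of the other 6 described subunits hold 0. That of Itga4 also lies below 0, with values near background in knockdown.

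**Figure D3:**
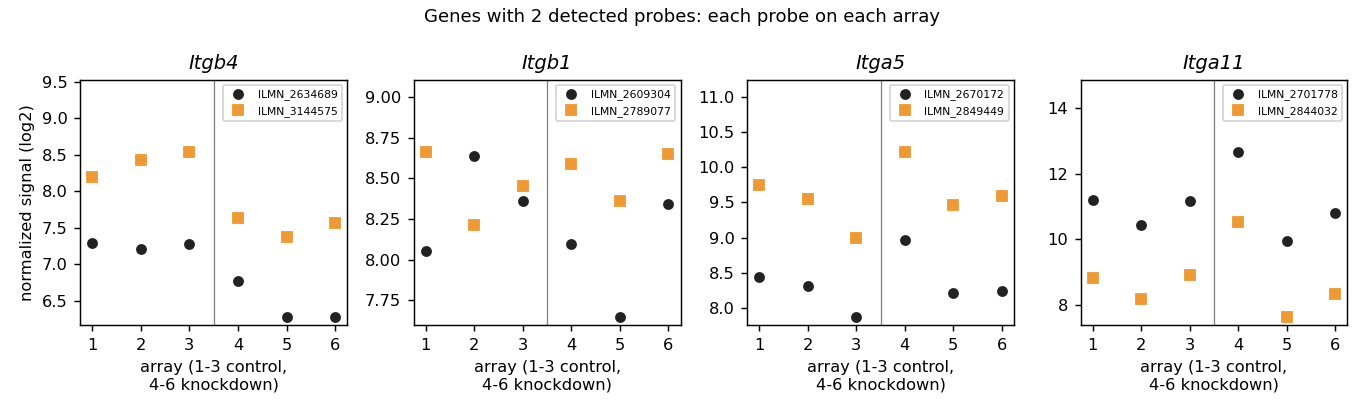
Normalized log2 signal of each probe on each array for the 4 integrin genes with 2 detected probes, control arrays left and knockdown arrays right of the grey line. Both Itgb4 probes were lower on arrays 4 to 6, both Itga5 and both Itga11 probes were highest on array 4, and the Itgb1 probes did not move together.

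Array 4 was the extreme array for a number of subunits, as it was for a large share of all genes tested. Itga5 and Itgb5 were at their highest there, by 0.63 and 0.39 log2 units above their mean over the 6 arrays, and Itga3 and Itga6 at their lowest, with deviations of -0.71 and -0.55. Over all genes tested, 27% were highest and 25.9% lowest on array 4. Itgb4 differed from these subunits in that its deviations were alike on the 3 knockdown arrays, at -0.32, -0.58 and -0.40, against 0.24, 0.47 and 0.59 on the control arrays. Knockdown arrays were also alike for Itgb1 by its brighter probe and for Itgav, with SD of 0.15 and 0.18 log2 units, beside 0.13 for Itgb4. Without array 4 the log2 fold change of Itgb4 was -0.92.

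Promoter windows from RefSeq (GRCm38.p6, 250 bases before to 50 after the annotated start, 5′ to 3′ on the gene's strand) were matched for 6 of the 9 genes. No window was matched for Itgb4, Itga6 or Itgb3. The windows of Itga5 and Itgb5, which were both highest on array 4, and of Itga3, which was lowest there, are shown so that their sequences can be set side by side. The table holds 2 windows for Itga3, and the more upstream one on the gene's strand is shown. Capitals mark matches on either strand to GGGCGG (the GC box bound by Sp1), CACCTG (the E box bound by Snail and Zeb factors), TGANTCA (AP-1) and GGAATG (TEAD), none of which overlap here.
Itga5, chr15:103366742-103367041, minus strand: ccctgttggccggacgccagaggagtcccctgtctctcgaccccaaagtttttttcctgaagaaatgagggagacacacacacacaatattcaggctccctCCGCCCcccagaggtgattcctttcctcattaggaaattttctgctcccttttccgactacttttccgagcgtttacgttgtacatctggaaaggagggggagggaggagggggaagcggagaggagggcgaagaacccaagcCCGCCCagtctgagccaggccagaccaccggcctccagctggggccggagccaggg
Itgb5, chr16:33829415-33829714, plus strand: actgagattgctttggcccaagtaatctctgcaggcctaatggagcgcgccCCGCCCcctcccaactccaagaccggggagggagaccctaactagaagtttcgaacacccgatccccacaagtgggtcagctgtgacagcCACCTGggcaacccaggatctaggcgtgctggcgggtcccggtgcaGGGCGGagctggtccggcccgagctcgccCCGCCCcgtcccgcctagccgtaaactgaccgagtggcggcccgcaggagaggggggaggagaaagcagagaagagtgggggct
Itga3, chr11:95076665-95076964, minus strand: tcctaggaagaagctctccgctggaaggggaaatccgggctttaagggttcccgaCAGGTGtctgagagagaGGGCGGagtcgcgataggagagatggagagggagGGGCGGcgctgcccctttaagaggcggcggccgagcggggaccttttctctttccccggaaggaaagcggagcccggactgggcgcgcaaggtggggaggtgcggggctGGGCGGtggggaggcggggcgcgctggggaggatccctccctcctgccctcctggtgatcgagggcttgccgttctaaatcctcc
GGGCGG was found 2 times in the Itga5 window, 3 times in that of Itgb5 and 3 times in that of Itga3, and 35.7% of the 32851 windows in the table hold it. CACCTG was found 1 time each for Itgb5 and Itga3 and not in the Itga5 window, and 20.2% of all windows hold it. TGANTCA and GGAATG, held by 7.81% and 14.7% of all windows, were in none of these 3. The Itga3 window that is not printed, chr11:95069149-95069448, holds GGGCGG and TGANTCA 1 time each and neither of the other motifs. The matches describe letters in these windows, and no binding was measured. Array 4 was the extreme array for a large share of all genes, and no link between the motifs and its values was tested.

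Of 17 further integrin subunit genes on the array, 8 were not detected on any array, among them the leukocyte subunits Itgam and Itgb2, and 7 passed the filter. Itgbl1, a secreted protein related to beta subunits and not itself a subunit, is counted among the 17 and the 7. None of the 7 passed limma's adjusted threshold. Values were above control for 5 and below for 2, Itga4 and Itga8, neither of them detected on every array. The median log2 fold change of the 7 was 0.14, where all genes had 0.01. Without array 4, 1 was above and 6 were below control, with a median of -0.43. Itga4 is the alpha subunit of a fibronectin and VCAM1 receptor. Itga4 was at 5.78, 5.77 and 6.54 log2 units in control and at 5.17, 5.09 and 5.40 in knockdown, where it was detected on 1 of the 3 arrays. It thus entered only through the control group, where it is high, and arrays 4 and 5 lay below the lowest detected signal, so that no fold is given and the lack of overlap is not read as a difference. The other 5 of its 6 probes were not detected on any array.

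Array 4 held the highest value for 5 of the remaining 6 genes. Itga11, the alpha subunit of a collagen receptor, was at 11.20, 10.44 and 11.17 log2 units in control and at 12.67, 9.96 and 10.80 in knockdown. Its log2 fold change of 0.20 ± 0.61 (SE, limma adjusted p = 0.998) turned to -0.56 without array 4, and its other detected probe had the same order of arrays within the knockdown group. Itga1, also of a collagen receptor, was at 8.03 on array 4 and between 5.94 and 6.69 on the other 5, and its log2 fold change of 0.14 turned to -0.52 without array 4. Itga7, of a laminin receptor, was at 7.95 on array 4 and between 6.29 and 7.06 on the others, with a log2 fold change of 0.17 that turned to -0.32. Itgbl1, a secreted protein related to beta subunits, was at 10.09 on array 4 and between 7.86 and 9.25 on the others, with a log2 fold change of 0.55 that was 0.09 without array 4. Itga2b, the platelet alpha subunit, and Itga8, which binds nephronectin, had log2 fold changes of 0.06 ± 0.36 and -0.11 ± 0.32 (SE). That of Itga2b was -0.19 without array 4 and 0.44 without control array 2. That of Itga8 was -0.43 without array 4 and 0.18 without array 6. Itga8 was detected on 2 of 3 knockdown arrays. Its array 6 value lay below the lowest detected signal there, so its fold can rest on background. All 8 collagen ligand genes tested were also highest on array 4, by 0.93 log2 units on average; the part of array 4 in the subunit values was measured only by leaving it out.

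**Figure D4:**
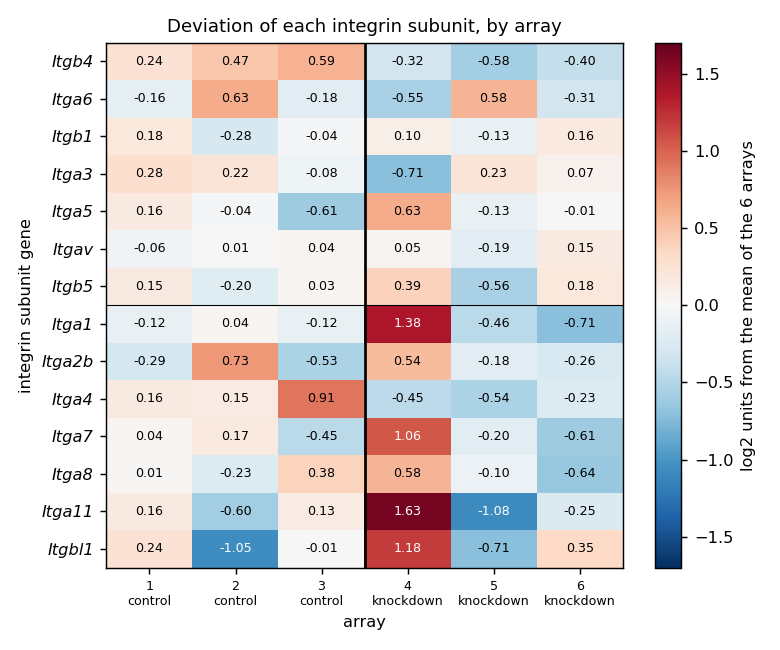
Deviation of the 14 tested integrin genes, the related Itgbl1 among them (rows), from their mean over the 6 arrays (columns). Values are in log2 units, with red above and blue below the mean. Itga11, Itga1, Itgbl1 and Itga7 deviate by 1.63, 1.38, 1.18 and 1.06 on array 4, and Itgb4 is above its mean on the 3 control arrays and below it on the 3 knockdown arrays.

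The partners and ligands of integrins were described by 8 lists, the further subunits among them, with 113 genes of which 73 passed the filter. None of the 73 passed an adjusted p of 0.05 in limma over all genes (0% of 9200). There were 50 above and 23 below control, with a median log2 fold change of 0.11. Of all genes, 52.3% were above control, with a median of 0.01. Without array 4, and also without control array 2, 40 of the listed genes were above and 33 below. The groups did not overlap for 7 of the 73, which is 9.59%, beside 7.83% of all genes, and Itga4, near background in knockdown, is 1 of the 7.

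Among hemidesmosome partners, 3 of 7 genes on the array passed the filter and 4 were not detected on any array, Krt5 and Krt14 among them. Cd151, a tetraspanin that binds the laminin-binding integrins alpha3beta1, alpha6beta1 and alpha6beta4, was at 12.50, 12.65 and 12.62 log2 units in control and at 11.43, 12.09 and 12.02 in knockdown. Every knockdown array was below every control array, with array 4 the lowest. The log2 fold change was -0.75 ± 0.22 (SE; 95% interval -1.25 to -0.25; limma adjusted p = 0.998), and it was -0.54 without array 4. Its other 2 detected probes gave -0.79 and -0.75, both with no overlap between the groups. Plec, the plakin that links beta4 to keratin filaments, was at -0.22 ± 0.26 and Dst, which holds the epithelial plakin BPAG1, at 0.21 ± 0.22 (log2 fold change, SE), and the groups overlapped for both.

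The 4 laminin genes tested, of 8 on the array, all had values above control, with a median log2 fold change of 0.22 and no call. Of these, 3 were highest on array 4, by 0.50 log2 units on average over the list, and without it 3 of 4 were above control with a median of 0.07. Lamb1, the beta1 chain of many basement membrane laminins, was at 8.49, 8.46 and 8.01 log2 units in control and at 8.76, 8.71 and 8.56 in knockdown, with no overlap (log2 fold change 0.35 ± 0.20, SE, limma adjusted p = 0.998). Its interval, from -0.10 to 0.80, holds 0, and the value was 0.20 without control array 3. Collagen ligands were above control in 8 of 8 tested genes with a median of 0.35, but the groups overlapped for all 8. Without array 4 there were 5 above control with a median of 0.09, and without control array 2 there were 6 with a median of 0.19. Col3a1, Col5a2 and Col1a1, named after their values were seen, were at 1.61 ± 0.61, 1.19 ± 0.42 and 0.73 ± 0.31 (log2 fold change, SE, limma adjusted p = 0.998 for each). The other collagen genes lay between 0.14 and 0.36.

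Fibronectin and the other ligands listed with the RGD-binding integrins had values above control for 8 of 10 genes, with a median log2 fold change of 0.18. Without control array 2 there were 6 above control with a median of 0.12, and without control array 3 there were 8 with a median of 0.10. Without array 4 there were 7 with a median of 0.13. Fn1, the ligand of alpha5beta1, was at 11.28, 11.41 and 10.61 log2 units in control and at 11.26, 11.33 and 11.75 in knockdown (0.35 ± 0.26, SE, limma adjusted p = 0.998), with overlap between the groups; it was named after its value was seen. The lowest Fn1 value, 10.61, was that of control array 3 alone. Postn, a matricellular ligand of alphav integrins, was the only gene of this list whose groups did not overlap. It was at 7.35, 6.56 and 7.39 in control and at 8.79, 7.39 and 8.48 in knockdown, where the lowest knockdown and the highest control array differed by less than 0.01 log2 units (log2 fold change 1.12 ± 0.39, SE, limma adjusted p = 0.998).

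Inside the cell, the adaptors and activators that link integrins to actin had 11 of 20 values above and 9 below control, with a median log2 fold change of 0.03 and overlap for all 20. They include Tln1 and Fermt2, which switch integrins on, at 0.12 ± 0.20 and -0.18 ± 0.19 (log2 fold change, SE), and Vcl, which reinforces the actin link, at -0.02 ± 0.18. The Tln1 probe, at 5.52 to 6.12 log2 units, lay near background, where folds are understated. Kinases and signalling genes were at 6 above and 5 below, with a median of 0.01. Git1, a scaffold of focal adhesion turnover, had no overlap at 0.18 ± 0.16, but its interval of -0.20 to 0.55 holds 0. Membrane partners had 7 of 10 values above control, with a median of 0.10. Of the 10, 8 were highest on array 4, where the list lay 0.27 log2 units above its mean, and 4 were above control without it, with a median of -0.04, as were 4 without control array 3, with a median of -0.03. Cd47, a partner of alphavbeta3, was at 0.25 ± 0.16 and Cav1, the caveola protein, at 0.32 ± 0.19, both with no overlap between the groups and intervals that hold 0 (-0.13 to 0.63 and -0.12 to 0.76; limma adjusted p = 0.998 for each). By the mean of its detected probes in place of the brightest, Cd47 was at only 0.14. The gap between the groups of Cav1 was 0.0039 log2 units, and its value was 0.19 without control array 3. Tetraspanins other than Cd151 in this list, Cd9, Cd63, Cd81 and Cd82, lay between -0.09 and 0.20.

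**Figure D5:**
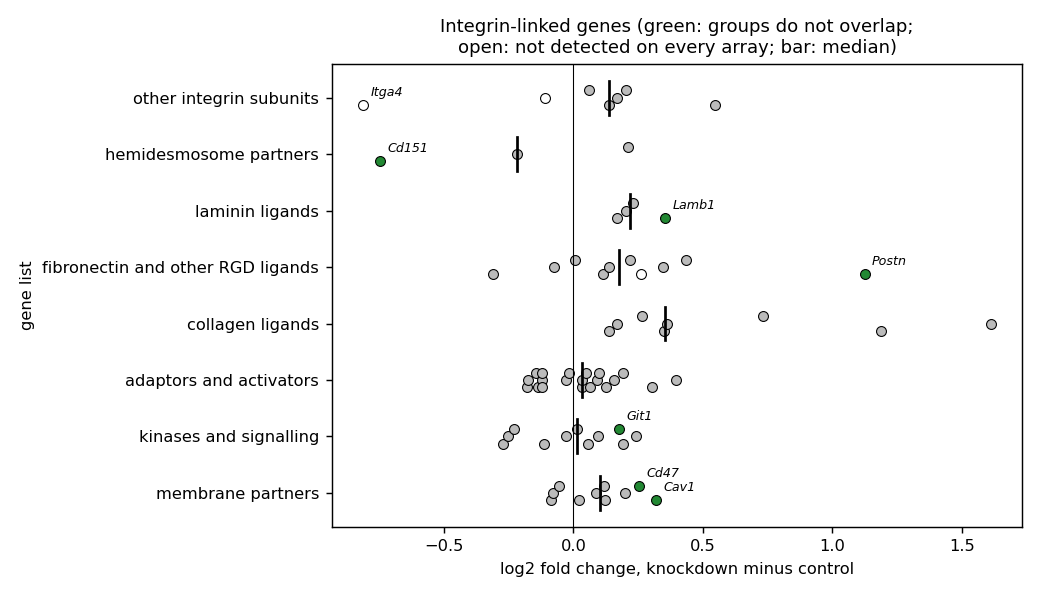
Log2 fold change (knockdown minus control) of every tested gene in 8 lists of integrin-linked genes, with the list median as a bar and genes detected on every array whose groups do not overlap in green. Open points were not detected on every array, Itga4 among them. Cd151 lies at -0.75 and Postn at 1.12 (green), while adaptors and kinases lie around 0. Col3a1 and Col5a2 lie higher than Postn, at 1.61 and 1.19, with groups that overlap.

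The 5 genes whose pattern over the 6 arrays was most like that of Itgb4, by Pearson correlation among 9200 genes, were Morn3 (r = 0.994), AI597479 (0.988), Adm (0.983), Cyp2s1 (0.975) and Ddah1 (0.974). With 6 arrays shared by all genes, and a choice of the highest of many values, such correlations describe these arrays only. Adm, the gene of the peptide hormone adrenomedullin, was at 10.17, 10.44 and 10.75 log2 units in control and at 9.18, 8.86 and 8.69 in knockdown. Ddah1, an enzyme that breaks down asymmetric dimethylarginine, was at 12.40, 12.50 and 12.70 in control and at 11.99, 11.996 and 12.06 in knockdown. AI597479 had a log2 fold change of -0.77 ± 0.19 (SE) and Morn3 of -0.24 ± 0.16. The Morn3 probe, at 5.53 to 5.85 log2 units, lay near background. Cyp2s1 was detected on 3 of the 6 arrays, and its knockdown values of 5.03, 5.01 and 5.13 lay below the lowest detected signal of those arrays, so no fold is given.

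Marker levels of other cell types were set beside the Itgb4 values. The summed signal of the stratified epithelium markers above background was 62.9 to 79.9 intensity units in control and 68.4 to 70.5 in knockdown, with 6 of 7 undetected. For fibroblast and mesenchyme markers it was 61300 to 70700 in control and 62900 to 79400 in knockdown. The lens marker sum was 12800 to 13500 in control and 10800 to 12700 in knockdown. For endothelium it was 270 to 383 against 185 to 216, where Ramp2 was the only marker detected on all arrays and Pecam1, Cdh5, Kdr and Tie1 were not detected on any. The blood list, with 4 of 4 undetected, was at 34.5 to 45.9 and 35.8 to 37.7. The lens sum and the sum of the endothelium list, with only Ramp2 detected on all arrays, lay lower in knockdown, as Itgb4 did. All samples came from 1 cell line, so neither sum is read as a share of cells. The part of these sums in the Itgb4 values was not tested. In bulk RNA, fewer cells of a type and less RNA per cell cannot be told apart.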

How the data were processed

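RNA of 3 control and 3 knockdown samples was turned into biotinylated cRNA for Illumina arrays, per the labels' protocols. The authors deposited a scanner table with an intensity and a detection p-value per probe and array, per the file headers, and a processed table of intensity values. Scanner software is not given in the sources used here. Every processed column followed 1 scanner column by a linear rescaling, with residuals of at most 0.011 units, and both belonged to 1 group. Scanner column names give the group and a running number only.

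Intensities were background-corrected, quantile-normalized and put on the log2 scale with limma's neqc (limma 3.58.1, R 4.3.3, offset 16, background inferred from the detection p-values). The offset understates folds of dim genes. Of 45281 probes, 34885 had 1 gene symbol in the platform annotation, 18 several and 10378 none; 34807 matched a current gene identifier, and 0 names changed. A probe entered with detection p under 0.05 on all arrays of a group (16349 probes), and a gene was represented by its brightest probe (9200 genes). Groups were compared with lmFit and eBayes, with Benjamini-Hochberg adjustment over all genes; intervals are at 95%. The fit was run on simulated data with known changes, where noise was drawn independently for each gene. No effect shared by an array was simulated, so that run says nothing about an array that stands apart, as array 4 does. Members and lists were chosen with earlier results of these data known. The naming rule took every listed subunit, further tested subunits, Tdrd7, up to 4 genes per list whose groups do not overlap and the 5 genes most correlated with Itgb4; other genes were named after their values were seen. The number of arrays limits the precision. On the authors' values, deviations of same-numbered samples from their group means correlated at r = -0.10, 0.13 and 0.59. Correlations of differently numbered samples are not given, so these values do not decide whether the numbers mark pairs. The main fit took no pairs. Alternatives were other normalizations, offsets, filters, probe rules, variance models, array weights, the authors' values and leaving out each array. Figures were drawn with matplotlib 3.10.9.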

Additional observations from a re-analysis of the deposited data

How the results depend on the processing

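Itgb4 stayed below control with no overlap between the groups under all 18 alternatives. Leaving out an array, or reusing the same normalized values, could not have made the groups overlap for Itgb4. Its log2 fold change lay between -0.96 and -0.79 when each array was left out in turn and between -0.94 and -0.69 under the others, with -0.69 on the authors' processed values, both without and with the replicate block there; limma adjusted p was 0.19 with array weights and up to 1.00 otherwise. The replicate block was fitted on that table only, because its columns name the samples. Scanner columns were assigned by name, and their names carry no replicate number. The linear rescaling pairs the columns of both in order, but the block was not fitted on the scanner values. Tdrd7 kept its direction, from -2.14 to -1.58. The count of genes past the adjusted threshold was 0 under 17 alternatives and 1 when every detected probe was fitted by itself, where unnamed probes enter. Unadjusted limma p under 0.05 was found for 303 of 9200 genes. Of the same number tested, it was found for 98 without scaling between arrays, 107 without control array 3 and 814 with weights. On the authors' values it was found for 257, and for 429 with the replicate block. Without a filter it was found for 782, but of 19057 genes tested. The number of the 7 subunits below control was 3, and it was 5 on the authors' values, 5 with the replicate block and 3 to 5 when each array was left out. Of the integrin-linked genes, 40 to 54 were above and 19 to 33 below control when each array was left out. Over 376 values of 21 named genes, 8 moved by more than 1 SD of the replicates and 31 changed sign, none of them called; the cause was not tested. Slide could not be a block because the files give none. For Itga4, whose fold is not given, the fitted difference was smaller with an offset of 50 and on the authors' values. A detection p under 0.01 left no value for Itga4 and Itga8. Signals near background limit Itga6, Itga4, Itga8, Itgb3, Itga2, Tln1 and Morn3.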
